A study of Mus musculus with 36 samples.

Results

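The effect of overexpressed glucokinase (GK) on the transcriptome was examined in 12 of the 36 cultures of the series: 6 cultures treated with the adenoviral vector for GK and 6 untreated cultures, chosen by their sample titles, with 2 cultures of each kind from each of 3 mice. The hepatocytes were isolated from female mice of the GCKR-P446L-EMI-B6N strain at 14 weeks of age. The study's abstract calls its transfected hepatocytes deficient in GKRP. For hepatocytes of male homozygous mice of this strain the study reports very low GKRP protein but Gckr mRNA similar to wild type. The labels give the genotype as Gckr-446L for mice 1 and 2 and as Gckr-446P/L for mouse 3, whereas the study's methods describe the mice as homozygous. After attachment for 2 to 3 h the cells were left untreated or incubated for 4 to 5 h with the GK vector. All cultures then had 10 nM dexamethasone and 10 nM insulin overnight, 24 h of culture in all at 5 mM glucose, and a final 4 h at 25 mM glucose. The untreated cells had no adenovirus, so GK and the virus cannot be told apart in this comparison. RNA was sequenced, and the 2 cultures of a mouse and condition were summed, which gave 3 mice against 3, paired by mouse.

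GK phosphorylates glucose to glucose 6-phosphate and is the hexokinase that sets the rate of hepatic glucose metabolism. GKRP, encoded by Gckr, binds GK and holds it in the nucleus at low glucose. Glucose metabolites activate the transcription factor ChREBP, encoded by Mlxipl, which acts as a heterodimer with Mlx at carbohydrate response elements of genes for glycolysis, fructose metabolism, glucose output and lipogenesis.

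Libraries held between 3924674 and 10046158 estimated reads. Gckr, which no vector in these cultures should supply, was between 37.1 and 72.0 CPM in the 6 untreated cultures and between 51.8 and 98.0 CPM in 5 of the 6 GK cultures, where CPM are counts divided by the TMM-adjusted library size. The other GK culture, culture 5 from mouse 3, held 1462 CPM, where cultures given mouse GKRP vectors held between 8934 and 23273 CPM. Without that culture 40 of the 42 raised genes given next were raised and no others, Mcm3 and Rell1 were no longer called, and 1 gene, Ftl2-ps, was lowered. The markers of hepatocytes summed to between 86499 and 122010 CPM in untreated hepatocytes and to between 87564 and 129640 CPM with GK, and Alb, the gene for albumin, had a log2 difference of 0.06 (SE 0.09). The 12 macrophage markers summed to between 296 and 367 CPM and to between 310 and 363 CPM. None of the 34 tested markers of hepatocytes, macrophages, endothelial, stellate or biliary cells was called.

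**Figure D1:**
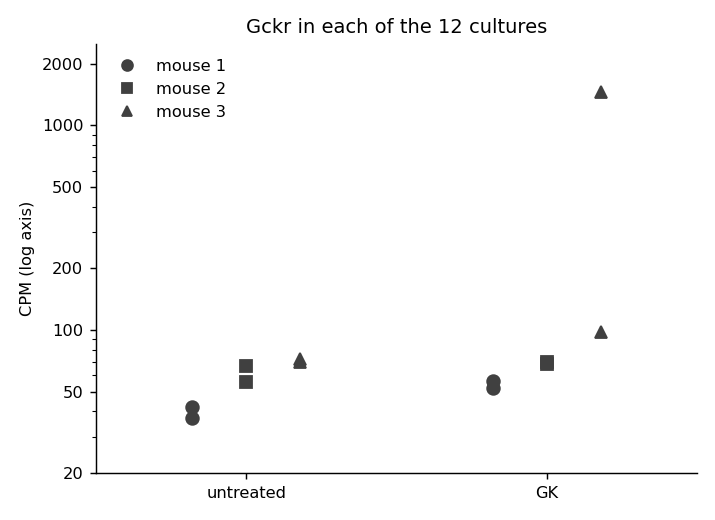
Gckr (CPM, log axis) in each of the 12 cultures, with each point a culture and each symbol a mouse. One GK culture of mouse 3 stands at 1462 CPM, and the other 11 cultures lie between 37.1 and 98.0 CPM.

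Of the 12177 genes tested, GK overexpression raised 42 (0.345%) and lowered 2 (0.0164%). These counts varied with the fit, with 25 raised and 20 lowered when only the 6 samples compared were used and 85 and 30 in DESeq2. A gene was called where its adjusted p (edgeR's quasi-likelihood test with Benjamini-Hochberg adjustment) was below 0.05 and its fold was 1.3 or more upwards or 0.7 or less downwards. At an unadjusted p under 0.05 there were 406 higher and 272 lower genes. The directions were balanced over the transcriptome, as 6103 genes were higher and 6074 lower, the median log2 fold change was 0.00045, and 90% of genes lay between -0.45 and 0.40. All 42 raised genes were higher in 3 of 3 mice, as were 18.3% of all genes, and 30 of the 42 did not overlap between the groups, as did 3.02% of all genes on the higher side. Their log2 fold changes ran from 0.38 to 2.60 (median 0.93), and 18 of the genes rose at least 2-fold. Fewer genes were called without the pairing by mouse, with a transcript length offset, and without mouse 2 or 3. With the offset 3 genes were raised and 0 lowered (edgeR, 153 higher and 143 lower at an unadjusted p under 0.05). With no mouse term in the model 1 gene, Tkfc, was raised and 0 lowered (edgeR, 135 higher and 114 lower at an unadjusted p under 0.05). Without mouse 2, 0 genes were called in either direction (345 higher and 213 lower unadjusted in edgeR), and without mouse 3 there were 8 raised genes, with Rgs16, Tkfc, Ddhd2, Klf10, Txnip and Ulk1 among them.

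**Figure D2:**
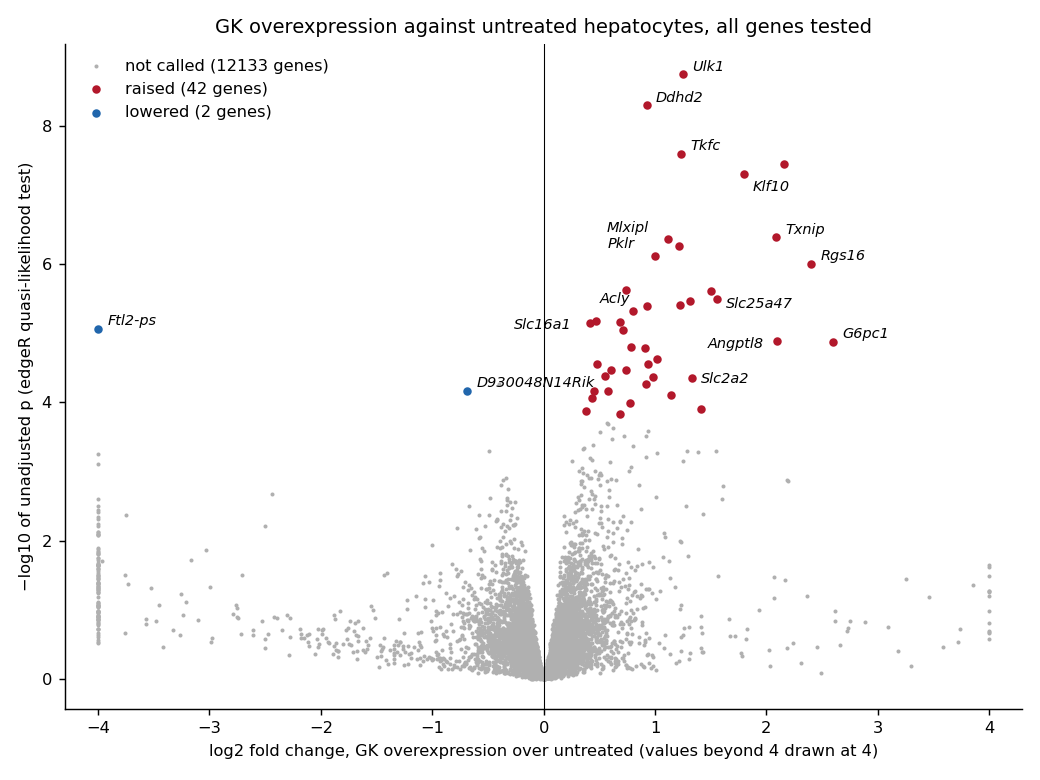
Each point is a gene of the 12177 tested, with its log2 fold change for GK overexpression over untreated on the x axis and −log10 of its unadjusted p on the y axis. The 42 raised genes (red) lie to the right and include G6pc1 at 2.60 and Ulk1 with the smallest p, and only 2 genes (blue) are called on the left.

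The raised genes held many that are known to respond to carbohydrate. A list of 28 genes described as ChREBP targets had 26 members tested. Among these 16 were raised and 0 lowered, against 0.345% of all genes raised, and the median log2 fold change was 0.96 against 0.00045 over all genes. All 26 were higher in 3 of 3 mice, and 24 were higher at an unadjusted p under 0.05. The median was 0.68 in mouse 1, 1.00 in mouse 2 and 1.18 in mouse 3. In part the list was chosen with results of these samples known, so its direction is not independent evidence.

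ChREBP binds pairs of E-boxes, and the letters of such sites were therefore looked for in the 1000 bases upstream of the canonical start of every tested gene (GRCm39). The E-box CACGTG, which reads the same on both strands, was found upstream of 17 of the 42 raised genes (40.5%) and of 17.5% of all 12177 genes. In the last 250 bases before the start it was found for 4 of the 42 (9.52%) and for 7.65% of all genes. The longer pattern of 2 E-box-like parts spaced by 5 bases, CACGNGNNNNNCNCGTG, also the same on both strands, was found upstream of 9 of the 12177 genes (0.0739%), and Pklr was the only raised gene among them. A match is a description of the letters and not of binding. The stretches below are the Pklr match and the E-box of 4 raised genes that are described further on, each with up to 60 bases on either side and the match in capitals. The Pklr and Slc25a47 stretches lie in introns of longer transcripts of these genes, and the other 3 lie upstream of their genes.
Pklr, chr3:89043700-89043836, + strand: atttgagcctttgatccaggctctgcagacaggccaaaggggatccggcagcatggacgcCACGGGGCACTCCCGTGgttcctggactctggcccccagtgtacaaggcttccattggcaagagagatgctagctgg
G6pc1, chr11:101257986-101258111, + strand: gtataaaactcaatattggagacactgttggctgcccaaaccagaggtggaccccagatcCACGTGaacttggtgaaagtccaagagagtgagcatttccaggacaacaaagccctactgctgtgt
Ulk1, chr5:110958258-110958383, - strand: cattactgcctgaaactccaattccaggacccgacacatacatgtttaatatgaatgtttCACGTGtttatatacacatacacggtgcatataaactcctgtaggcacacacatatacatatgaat
Pdhb, chr14:14296357-14296482, + strand: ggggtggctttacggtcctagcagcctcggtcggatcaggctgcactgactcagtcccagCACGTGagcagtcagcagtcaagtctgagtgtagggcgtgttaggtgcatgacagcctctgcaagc
Slc25a47, chr12:108816393-108816518, + strand: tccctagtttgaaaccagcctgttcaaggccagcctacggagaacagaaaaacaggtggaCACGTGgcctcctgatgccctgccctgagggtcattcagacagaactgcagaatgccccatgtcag
The Pklr match lies 119 to 103 bases before the start, and the E-boxes began 323 (G6pc1), 339 (Ulk1), 322 (Pdhb) and 568 (Slc25a47) bases before it. G6pc1 holds a second E-box 845 bases before its start.

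Of the genes of glucose entry and glucose output, 3 were raised. G6pc1 (G6pc in older annotation), the catalytic subunit of glucose 6-phosphatase, had the largest increase and few reads, with 0.396, 2.77 and 3.65 CPM in untreated hepatocytes of mice 1, 2 and 3 and 3.45, 24.5 and 16.6 CPM with GK. It was higher in each mouse, but the lowest GK sample overlapped the untreated range (log2 fold change 2.60, SE 0.46, adjusted p = 0.00677). Slc37a4, which carries glucose 6-phosphate into the endoplasmic reticulum where this phosphatase acts, was 18.1, 50.9 and 35.5 CPM when untreated and 41.4, 82.3 and 67.9 CPM with GK, also overlapping (log2 fold change 0.93, SE 0.18, adjusted p = 0.0116). Slc2a2, the glucose transporter GLUT2, was 15.3, 45.9 and 45.8 CPM and rose to 61.7, 91.6 and 89.2 CPM, with no overlap (log2 fold change 1.33, SE 0.26, adjusted p = 0.0158). These were the 3 members called of 9 tested in the list of glucose output and gluconeogenesis, whose median was 0.28.

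In glycolysis 5 of 17 tested genes were raised and 0 lowered, and all 17 had a positive log2 fold change (median 0.35). Pklr, liver pyruvate kinase, was 115, 55.6 and 96.7 CPM in untreated hepatocytes and 178, 121 and 229 CPM with GK. Each GK sample lay above each untreated one (log2 fold change 1.00, SE 0.14, adjusted p = 0.00101). Smaller increases were found for Pfkfb3, which makes fructose 2,6-bisphosphate (0.77, adjusted p = 0.0291), for Gpi1, glucose 6-phosphate isomerase (0.47, adjusted p = 0.00433), and for Slc16a1, the monocarboxylate transporter MCT1 (0.42, adjusted p = 0.00433). Gapdh, among the most abundant genes of the list, had a log2 fold change of 0.35 (SE 0.24, adjusted p = 1), which turned to -0.35 with a transcript length offset. Pdhb, a subunit of pyruvate dehydrogenase, rose by a log2 value of 0.80 (SE 0.13, adjusted p = 0.00335), and Gpd1, which makes glycerol 3-phosphate, rose by 0.74 (SE 0.14, adjusted p = 0.0133).

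In fructose metabolism 3 of 6 tested genes were raised and 0 lowered (median 0.43). Tkfc, triose kinase, was 188, 182 and 204 CPM in untreated hepatocytes and 363, 417 and 570 CPM with GK. The untreated values lay close together and below every GK value (log2 fold change 1.23, SE 0.14, adjusted p = 1.02e-04). Khk, ketohexokinase, was 64.8, 166 and 83.6 CPM and 116, 195 and 166 CPM, higher in each mouse with the groups overlapping (log2 fold change 0.69, SE 0.15, adjusted p = 0.0399). No gene of the pentose phosphate pathway was called (0 of 8, median 0.13, 3 higher at an unadjusted p under 0.05 and 0 lower), and Pgd had a log2 fold change of 0.15 (SE 0.07, adjusted p = 0.852). Of 13 tested genes of glycogen metabolism only Pygl, liver glycogen phosphorylase, was raised (0.48, SE 0.09, adjusted p = 0.0116).

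**Figure D3:**
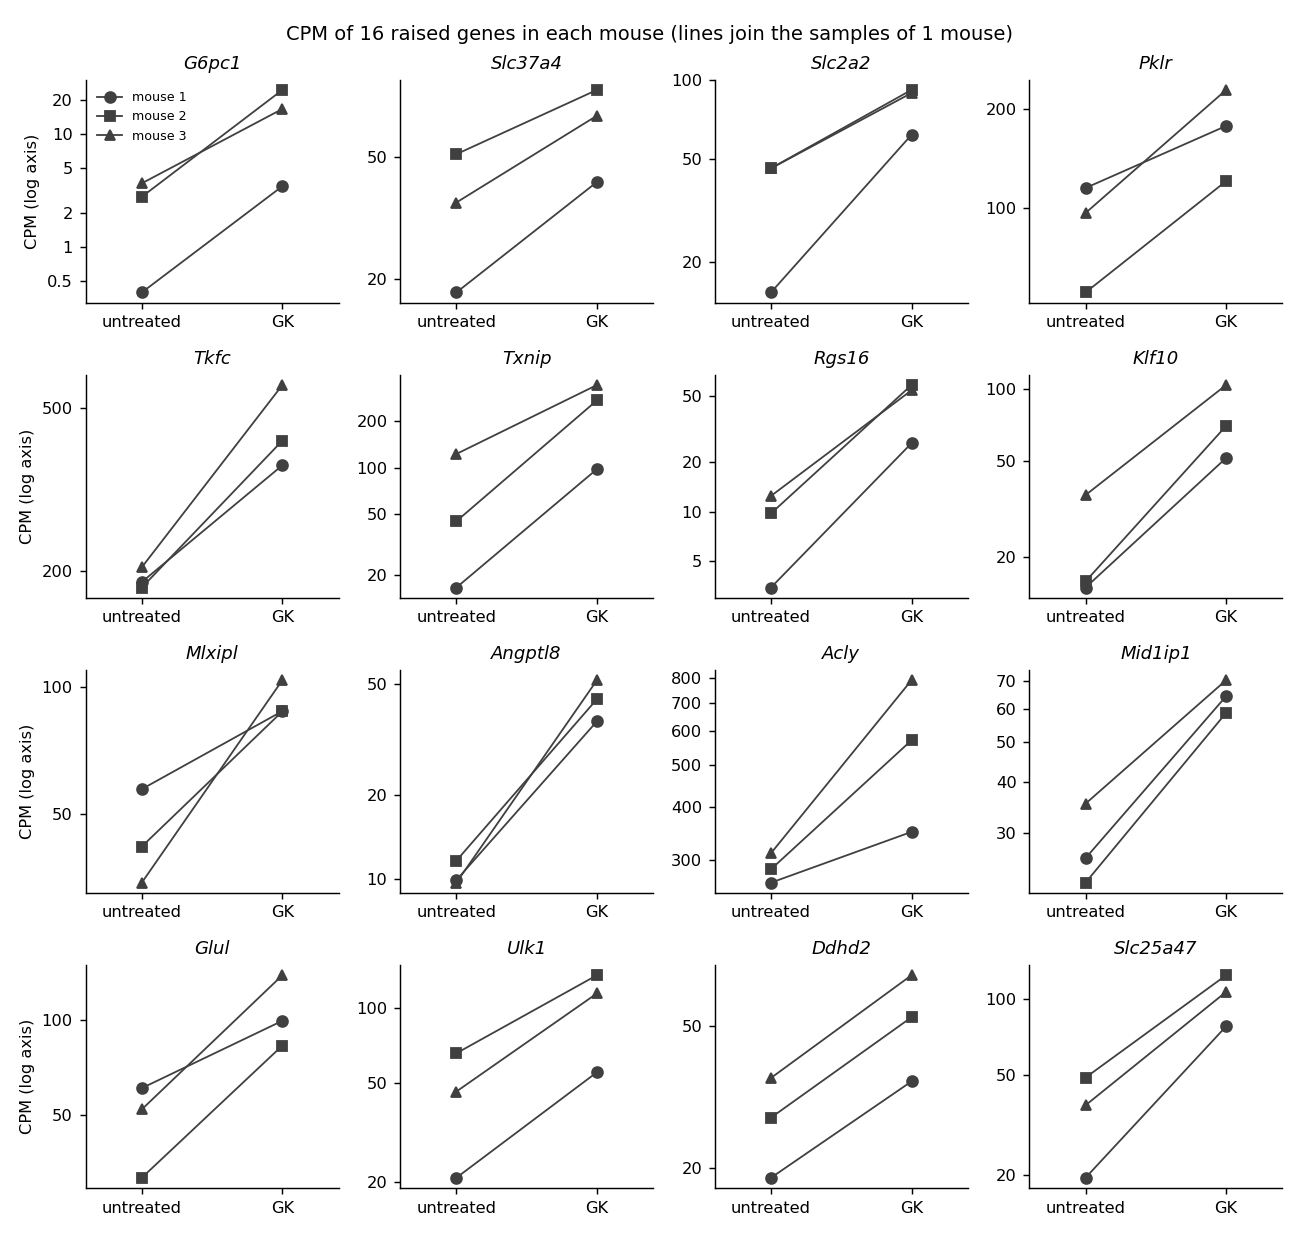
CPM (log axis) of 16 raised genes in untreated hepatocytes and with GK overexpression, with a line for each mouse. All 48 lines rise, and for Tkfc and Angptl8 the GK points lie well above the untreated points, whereas for G6pc1 and Txnip the mice differ in level by more than the groups are apart.

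Txnip, an arrestin that restrains glucose uptake, was 16.6, 44.8 and 123 CPM in untreated hepatocytes and 97.9, 274 and 344 CPM with GK. It rose in each mouse but the groups overlapped (log2 fold change 2.09, SE 0.29, adjusted p = 7.52e-04). Arrdc4, a related arrestin, was 5.84, 4.42 and 10.7 CPM and 10.7, 15.6 and 25.2 CPM, and did not pass the threshold (log2 fold change 1.29, SE 0.31, adjusted p = 0.103). Rgs16, a regulator of G-protein signalling, went from 3.46, 9.75 and 12.4 CPM to 26, 58.6 and 54.5 CPM. The groups did not overlap (log2 fold change 2.40, SE 0.35, adjusted p = 0.00118).

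Klf10, a zinc finger repressor, was 14.8, 15.7 and 36.1 CPM when untreated and 51.5, 70.1 and 104 CPM with GK, also without overlap (log2 fold change 1.80, SE 0.22, adjusted p = 1.21e-04). Mlxipl, which encodes ChREBP itself, was 57.3, 41.9 and 34.4 CPM and 87.6, 87.6 and 104 CPM. It was the only gene called of 9 hexokinases and ChREBP partners (log2 fold change 1.12, SE 0.16, adjusted p = 7.52e-04). The GKRP vectors at endogenous GK also raised Mlxipl over untreated hepatocytes (0.57, adjusted p = 0.00619 in edgeR). Where both sides had a GKRP vector, Mlxipl was not called for GK. Its value was 0.19 with GKRP-446P (adjusted p = 0.604 in edgeR) and 0.20 with GKRP-446L (adjusted p = 0.576). The part of the adenovirus in the rise of Mlxipl was not tested. Bhlhe40, a repressor of the circadian clock, had a log2 fold change of 0.41 and was not called (adjusted p = 0.182).

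Of 17 tested genes of lipogenesis and glycerolipid synthesis 4 were raised and 0 lowered (median 0.25). Acly, ATP citrate lyase, was 266, 286 and 312 CPM in untreated hepatocytes and 350, 572 and 790 CPM with GK, with the GK values all above and widely spread (log2 fold change 0.93, SE 0.15, adjusted p = 0.00307). Acaca, acetyl-CoA carboxylase, rose by a log2 value of 1.02 (SE 0.19, adjusted p = 0.0107), Mid1ip1, which promotes its polymerization, rose by 1.22 (SE 0.20, adjusted p = 0.00307), and the fatty acid elongase Elovl6 rose by 0.58 (SE 0.12, adjusted p = 0.0211). Fasn, fatty acid synthase, was 274, 255 and 241 CPM and 412, 447 and 630 CPM. Its groups did not overlap but it did not pass the threshold (log2 fold change 0.92, SE 0.23, adjusted p = 0.116). The desaturase Scd1, the most abundant of the list, had a log2 fold change of 0.36 (SE 0.09, adjusted p = 0.167).

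Angptl8, an inhibitor of lipoprotein lipase made by liver after feeding, was 9.90, 11.6 and 9.69 CPM when untreated and 36.8, 44.3 and 51.8 CPM with GK. The untreated values were close to each other and far below the GK values (log2 fold change 2.09, SE 0.37, adjusted p = 0.00677). It was the 1 gene called of 12 for VLDL, lipases and angiopoietin-like proteins, where Mttp had a log2 fold change of 0.28 (adjusted p = 0.675). Genes of cholesterol synthesis were not called in either direction (0 of 25 in edgeR, median -0.05, with 1 higher and 3 lower at an unadjusted p under 0.05), though 18 of the 25 had a negative value. Msmo1 had a log2 fold change of -0.21 (SE 0.09, adjusted p = 0.8) and Hmgcs1 of -0.15 (SE 0.08, adjusted p = 1), a log2 value that turned to 0.043 with a length offset. Genes of fatty acid oxidation and ketogenesis were not called (0 of 15, median 0.05, 1 higher and 0 lower unadjusted), nor were those of bile acids (0 of 10, median 0.09).

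**Figure D4:**
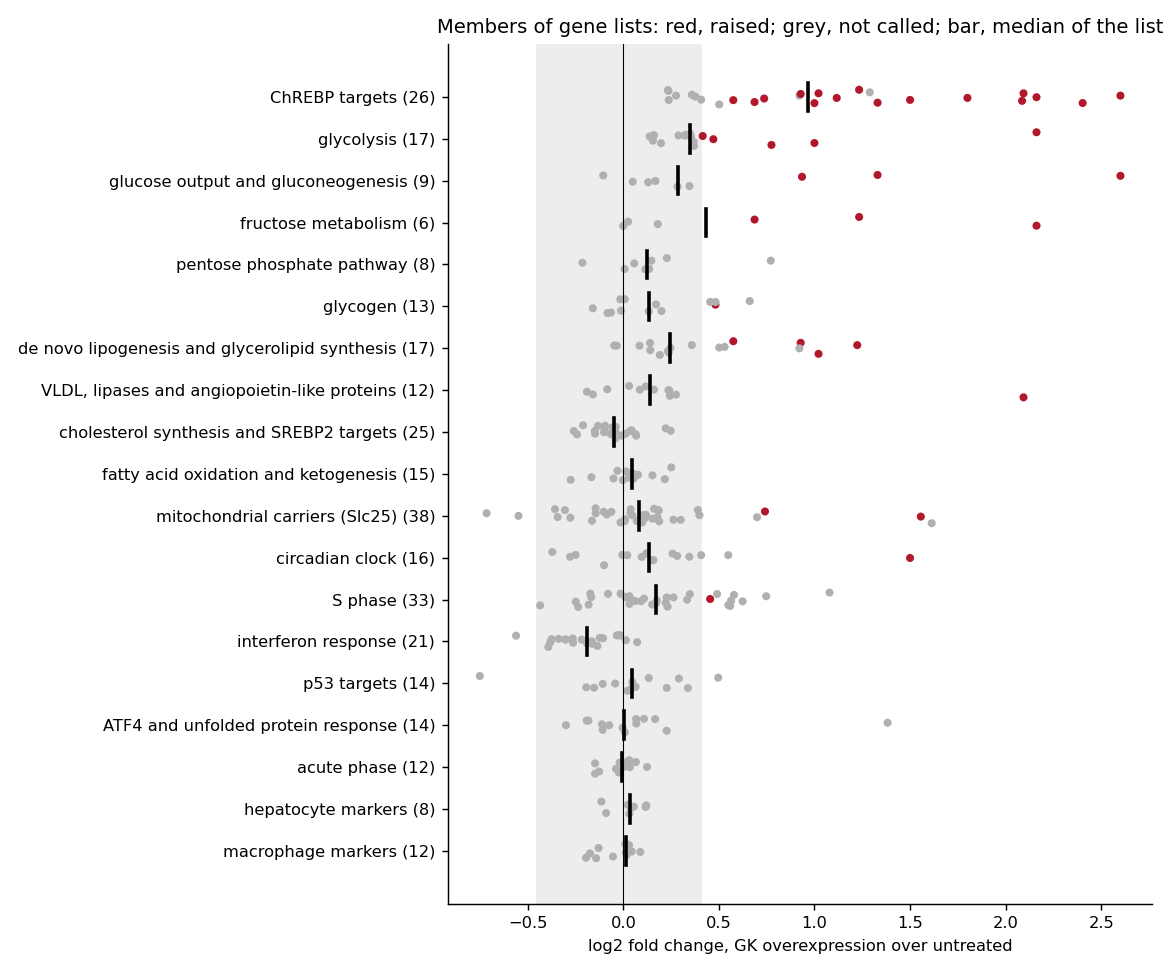
Log2 fold changes (x axis) of the tested members of 19 gene lists (rows, number tested in brackets), with raised genes in red, other genes in grey and the median as a bar. The shaded band holds 90% of all genes tested, from -0.45 to 0.40, and the medians of the ChREBP list (0.96) and the fructose list (0.43) lie beyond it.

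Of the 44 called genes, 18 were in no list. Ulk1, a kinase that starts autophagy, had the smallest p of all genes: it was 20.9, 65.9 and 46.3 CPM in untreated hepatocytes and 55.3, 136 and 115 CPM with GK. The mice differed in level and the groups overlapped, but the increase was alike in each mouse, with log2 ratios of 1.39, 1.04 and 1.3 (log2 fold change 1.25, SE 0.12, adjusted p = 2.13e-05). Ddhd2, a triglyceride and phospholipid lipase, was 18.8, 27.7 and 35.7 CPM and 34.9, 52.8 and 69.1 CPM. Its log2 ratios were 0.88, 0.92 and 0.95 (log2 fold change 0.93, SE 0.10, adjusted p = 3.00e-05). Glul, glutamine synthetase, rose by 1.21 (SE 0.17, adjusted p = 8.22e-04), Aacs, which activates acetoacetate in the cytosol, rose by 0.99 (SE 0.19, adjusted p = 0.0158), and F7, coagulation factor VII, rose by 0.55 (SE 0.11, adjusted p = 0.0158).

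Several raised genes encode transporters. Slc25a47, a mitochondrial carrier of liver, was 19.5, 48.7 and 37.8 CPM when untreated and 77.8, 124 and 106 CPM with GK, without overlap (log2 fold change 1.56, SE 0.25, adjusted p = 0.00292). Slc25a44, a mitochondrial carrier of branched-chain amino acids, rose by 0.74 (SE 0.12, adjusted p = 0.00249). These were the 2 raised among 38 tested Slc25 carriers, whose median was 0.08. Slc30a1, a zinc exporter, rose by 0.71 (SE 0.12, adjusted p = 0.00499) and Ank, which exports pyrophosphate and ATP, by 0.92 (SE 0.18, adjusted p = 0.0184). The remaining raised genes were Gfod1, Vwce, Gm7694, 2310022B05Rik, Fbxo34, Wee1, Mcm3, Rell1 and Dusp1, with log2 fold changes from 0.38 (Dusp1, a phosphatase of MAP kinases) to 1.42 (Gfod1). For Rell1 the value was 0.43 (adjusted p = 0.0254) and 0.35 (adjusted p = 0.135) without GK culture 5. Lhx6 was 3.27, 4.50 and 3.65 CPM and 5.72, 8.28 and 9.11 CPM, and did not pass the threshold (log2 fold change 1.01, SE 0.29, adjusted p = 0.266).

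On the lowered side, D930048N14Rik, a long non-coding RNA, was 15.4, 13.0 and 15.2 CPM in untreated hepatocytes and 9.25, 8.36 and 9.59 CPM with GK. The GK values lay below each untreated value, as they did for 3.49% of all genes (log2 fold change -0.68, SE 0.14, adjusted p = 0.0211, and -0.65 with adjusted p = 0.0512 without GK culture 5). Ftl2-ps was 364, 138 and 42.9 CPM and 0.0907, 0 and 0.0799 CPM. It is a processed pseudogene of the ferritin light chain, 1 untreated culture of mouse 1 held 929 CPM while another untreated culture held 0, and its value is uncertain because near-identical copies can exchange reads in the authors' estimation. Chka, choline kinase, named after its values were seen, had an adjusted p of 0.0184 but fell short of the fold threshold (log2 fold change -0.40, SE 0.08, lower in 3 of 3 mice).

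Of 33 tested S-phase genes only Mcm3 was raised (0.45, SE 0.09, adjusted p = 0.0211, and 0.42 with adjusted p = 0.057 without GK culture 5), and the median was 0.17, with values from -0.44 to 1.08. In the same model the 4 GKRP vectors at endogenous GK, which are also adenoviruses, had a median of 1.59 over these genes against untreated hepatocytes, with Mcm3 at 2.04 and Mcm6 at 1.53, where GK alone gave 0.26 for Mcm6 (adjusted p = 0.89). The vectors were used at titres of their own and express GKRP, and the untreated samples are shared by both comparisons. Of 21 tested interferon response genes 0 were called in edgeR (0 higher and 3 lower at an unadjusted p under 0.05), with a median of -0.19 and 19 negative values. The median was -0.02 in mouse 1, -0.13 in mouse 2 and -0.43 in mouse 3. No gene was called among 14 p53 targets (median 0.04), where Cdkn1a had a value of 0.34 (adjusted p = 0.2), 14 genes of ATF4 and the unfolded protein response (median 0.00, values from -0.30 to 1.38), 12 acute phase genes (median -0.01), 12 hepatocyte transcription factors (median 0.06) or 13 mitochondrially encoded genes (median 0.13, values from -0.13 to 2.19). The highest values of the ATF4 and mitochondrial lists, named after they were seen, were those of Chac1, which degrades glutathione (1.38, SE 0.34, adjusted p = 0.105), and of mt-Co2, a subunit of cytochrome c oxidase (2.19, SE 0.60, adjusted p = 0.184). Both had all GK samples above all untreated ones, and mt-Co2 was 134, 274 and 299 CPM in untreated hepatocytes and 2236, 708 and 366 CPM with GK. Against untreated hepatocytes the 4 GKRP vectors gave 2.09 for Chac1 (adjusted p = 6.76e-05 in edgeR) and 0.61 for mt-Co2 (adjusted p = 0.558). The same vectors gave 0.44 for Cdkn1a (adjusted p = 5.99e-04 in edgeR).

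The GK effect was also measured in hepatocytes given GKRP vectors, in samples other than the GK and untreated samples compared for the 42 genes. The vector samples were in the same fit as the 42 calls, and its filter, spread and mouse terms used them. The overlap given next is therefore not independent of those calls. With GKRP-446L, GK with vector against the vector alone (mean of human and mouse GKRP) raised 15 genes, which is 0.123% of those tested, and all 15 were among the 42 (35.7% of the 42 and 100% of the 15). They included Txnip (2.00, adjusted p = 8.79e-05), Rgs16 (1.93, adjusted p = 0.00143), Klf10 (1.18), Ulk1 (0.80), Tkfc (0.80) and Pklr (0.62). The median over the 42 genes was 0.51, and 40 were positive. With GKRP-446P the GK effect raised 1 gene (0.00821% of those tested), and the median over the 42 was 0.16 with 37 positive. With no mouse term 2 genes were raised with GKRP-446L, and without mouse 2 the counts were 0 with either variant.

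The difference between the GK effect with and without GKRP was then tested itself. Without GKRP the GK effect compares virus with no virus, whereas with GKRP both sides had an adenovirus. The difference therefore holds the virus as well as GKRP, and these cannot be told apart. With GKRP-446P the GK effect was smaller for 4 genes (0.0328% of those tested) and larger for 0. They included Ulk1 (difference -1.03, SE 0.15, adjusted p = 0.0109), Tkfc (-0.96, SE 0.17, adjusted p = 0.0446) and Ddhd2 (-0.75, SE 0.12, adjusted p = 0.0162). Slc16a1 had an adjusted p of 0.0218 with a difference of -0.51, just short of the fold threshold. With GKRP-446L 0 genes differed in edgeR (174 higher and 223 lower at an unadjusted p under 0.05), and 35 differed in DESeq2. As the 4 genes were also raised in the GK samples used here, their difference rests in part on the same values. With no mouse term 0 genes differed with GKRP-446P, and without mouse 1, 2 or 3 there were 2, 0 and 1, of which 0, 0 and 1 were among the 4.

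**Figure D5:**
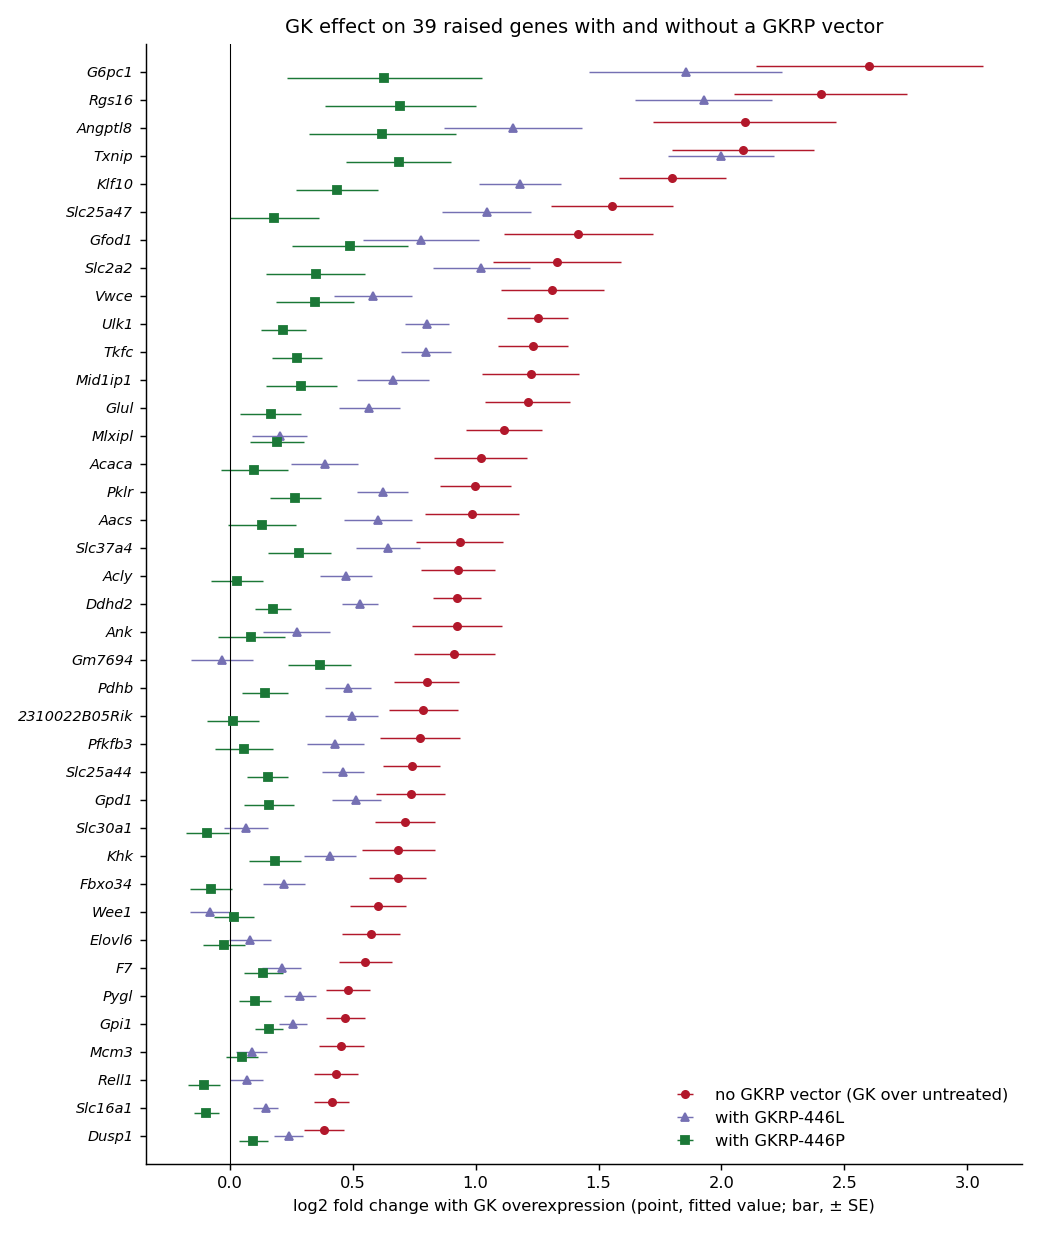
Log2 fold change with GK overexpression (x axis, point ± SE) for 39 of the raised genes in hepatocytes with no GKRP vector (red circles), with GKRP-446L (purple triangles) and with GKRP-446P (green squares). The medians over all 42 raised genes are 0.93, 0.51 and 0.16, and Ulk1 goes from 1.25 to 0.80 and 0.22. The 42 genes were chosen on the values with no GKRP vector, which favours a higher median there.

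Set against the 4 GKRP vectors at endogenous GK in place of untreated cells, GK overexpression raised 368 genes (3.02%) and lowered 312 (2.56%). The counts were 104 and 141 with no mouse term, 37 and 25 with the length offset and 56 and 115 at a fold of 2. Of the 42 genes, 39 were raised and 2, Wee1 and Mcm3, were lowered in this comparison (-1.02 and -1.59). Against untreated hepatocytes the same vectors raised 378 genes (3.1%) and lowered 128 (1.05%), and of the 42 genes they lowered 5, Klf10, Txnip, Pklr, Rgs16 and Slc2a2, and raised 4, Mlxipl, Wee1, Mcm3 and Rell1. Txnip, for example, had a log2 fold change of -1.44 with the vectors (adjusted p = 1.10e-04) and of 2.09 with GK. These comparisons share the GK or the untreated samples and are given side by side.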

How the data were processed

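The members and gene lists were chosen with earlier results of these data known. The authors estimated transcript levels with Salmon 1.4.0 (untrimmed reads, Gencode M26, GRCm39) and deposited, per culture, expected counts (estimated reads of 139225 transcripts, not normalized), TPM and effective lengths. Transcripts were paired with genes by Ensembl identifiers without version in a later Gencode release of the same build (137570 matched, and the rest held at most 0.639% of reads), and counts were summed to genes and rounded. Duplicate cultures were distinct libraries (chi-square of their counts 4.38 to 30.2 per degree of freedom) and were summed as 1 replicate. This gave 30 samples of 10 conditions and 3 mice.

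Genes were filtered with filterByExpr by condition, normalized with TMM and tested with the quasi-likelihood F test of edgeR 4.0.16 (R 4.3.3) with condition and mouse as terms and Benjamini-Hochberg adjustment over 12177 genes. SE is the absolute log2 fold change divided by the square root of F. The study's text names no mouse term. It was used because each mouse gave cells for every condition, and GK and untreated samples of the same mouse deviated together from their group means (r = 0.42, 0.37 and 0.35 in the 3 mice). The biological coefficient of variation was 0.231 with the term and 0.323 without it. Differences of GK effects were contrasts in the same fit. Named genes were those called with 1 direction in all 3 mice, the 4 most abundant members of each list, the genes the study's text names, and Gckr. Some genes that this rule takes are not reported here, though the counts and list medians include them. The tests were run on counts simulated from the fitted model, which cannot show whether that model describes the real spread. Alternatives were DESeq2 1.42.0, RLE scaling, other filters and thresholds, each culture as a sample, only the 6 samples compared, an offset for effective transcript length from the deposited TPM, no mouse term, and each mouse left out. Upstream windows were read from the GRCm39 genome at the Ensembl canonical start.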

Additional observations from a re-analysis of the deposited data

Results flagged for a closer look

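In 5 of 114 groups of 6 cultures examined (57 genes, untreated and GK), 1 culture lay far from the other 5. Chance flags about 5% of such groups where the values are independent. Here each mouse gave 2 of the 6 cultures, so this rate may not hold. Gckr was 1462 CPM in GK culture 5 of mouse 3 against 51.8 to 98.0 CPM in the others, and Rell1 was 34.2 CPM in the same culture against 21.1 to 25.6 CPM. Rell1 was also higher with the GKRP vectors (0.52, adjusted p = 6.15e-05 in edgeR), and the part of this culture in its call was not tested beyond leaving the culture out. Ftl2-ps was 929 CPM in untreated culture 2 of mouse 1 against 0 to 286 CPM. Pfkfb3 was 56.5 CPM in untreated culture 1 of mouse 1 against 82.3 to 97.1 CPM. Cdkn1a was 224 CPM in GK culture 1 of mouse 1 against 265 to 283 CPM.

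The effect of GK differed between hepatocytes with GKRP-446P and without GKRP at an adjusted p under 0.05 in edgeR for genes that included Ulk1 (by -1.03), Ddhd2 (-0.75), Tkfc (-0.96) and Slc16a1 (-0.51) on the log2 scale. With GKRP-446P both sides of the GK comparison had an adenovirus, and without GKRP only the GK side had one. GKRP and the virus therefore cannot be told apart.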

How the results depend on the processing

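Scaling by RLE, no or a stricter filter on low counts, and leaving out GK culture 5 of mouse 3 gave between 39 and 43 raised genes. The genes raised and lowered were 1 and 0 with no replicate block (no mouse term), 25 and 20 with only the 6 samples compared, 103 and 8 with each culture as a sample, 85 and 30 in DESeq2, 3 and 0 with the transcript length offset, and 18 and 1 at a fold of 2. Lowered genes numbered 7 with no filter and 1 without the GK culture. Leaving out each mouse gave 0 to 39 raised and 0 to 4 lowered genes. All 42 raised genes were among the 85 of DESeq2, 41 among the 103, 21 among the 25 and 28 among the 39 left without mouse 1. The 3 left with the length offset included Rgs16. This offset turned Gapdh to -0.35 and Hmgcs1 to 0.043. The cause of these changes was not tested. Over all settings the median of all genes stayed between -0.04 and 0.00.

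Genes with a smaller or larger GK effect with GKRP-446P numbered 0 with no replicate block, 24 with each culture, 54 in DESeq2, 0 with the offset, 2 at a fold of 2, and 0 to 2 without a mouse, against 4. With GKRP-446L DESeq2 gave 35 against 0. Genes raised by GK with GKRP-446P numbered 17 in DESeq2 and 0 to 1 without a mouse, against 1. With GKRP-446L they numbered 2 with no block, 51 in DESeq2, 3 with the offset, 7 at a fold of 2 and 0 to 15 without a mouse, against 15. Against the 4 GKRP vectors 104 were raised and 141 lowered with no block, 37 and 25 with the offset, 600 and 589 with no fold threshold, 56 and 115 at a fold of 2, and 133 to 303 and 129 to 245 without a mouse. For these vectors against untreated cells the counts were 181 and 49 with no block, 44 and 19 with the offset, 124 and 33 at a fold of 2, 122 to 290 and 66 to 102 without a mouse, and 337 were lowered with no fold threshold. The alternatives for the vectors against untreated cells and for the GK effect with each variant were added after the data were seen. Low counts limit G6pc1, Gfod1 and Vwce, each under 5 CPM in untreated cells.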
